A study of Mus musculus with 18 samples.

Results

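The 3 uncoupling protein genes of the mouse, Ucp1, Ucp2 and Ucp3, were followed through an RNA-seq experiment on stimulated brown adipocytes. They were taken by gene symbol from a table of 20295 genes, each symbol had 1 row, and all 3 had enough reads to be among the 12156 genes tested. Wild-type BAT-LgT cells, a line of brown preadipocytes from the mouse that the large T antigen of SV40 immortalises, were differentiated in culture and treated on day 7. Because all samples came from 1 line, the replicates are repeated cultures and not different animals.

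Vehicle cells were given DMSO for 3 h. ISO cells received isoproterenol, an agonist of β-adrenergic receptors that raises cAMP and so starts both PKA signalling and lipolysis, at 100 nM for 3 h. SR-3420 cells received a ligand of ABHD5 that activates the triglyceride lipase ATGL downstream of the receptor, also for 3 h. The labels give 10 µM of SR-3420 and the text of the study a different dose, so the dose of these samples is uncertain. In the 3 groups whose names begin with Lipase Inh. (Lipase Inh. + Vehicle, Lipase Inh. + SR-3420, Lipase Inh. + ISO), the ATGL inhibitor Atglistatin and the HSL inhibitor CAY10499 were added 1 h before the same treatments. Each of the 6 groups had 3 samples.

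Uncoupling proteins belong to the SLC25 family of carriers in the inner mitochondrial membrane. UCP1 is found in brown and beige adipocytes, where fatty acids activate it and purine nucleotides inhibit it. It lets protons return to the matrix without making ATP, so that the energy of respiration is released as heat. UCP2 is widely expressed and has been linked to the export of metabolites from mitochondria and to the control of reactive oxygen species. UCP3 is found mainly in skeletal muscle and brown fat and is tied to fatty acid handling. Ucp1 transcription is known to be driven by cAMP signalling through CREB and ATF2 and by nuclear receptors such as the PPARs, for which fatty acids are ligands.

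Ucp1 lies on the plus strand of chromosome 8 (mm9, chr8:85814247-85822355). Ucp3 (chr7:107621500-107634941) and Ucp2 (chr7:107641867-107648138) are tandem neighbours on the plus strand of chromosome 7, with 6925 bases between the end of Ucp3 and the start of Ucp2. The counted lengths of the transcripts were 1644 bases for Ucp1, 1576 for Ucp2 and 2448 for Ucp3. No other gene of the table overlapped the span of any of the 3.

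Because β-adrenergic and fatty acid signals reach DNA through factors with known target motifs, the sequence before each start is shown. The sequences were read from the mm9 genome, 5′ to 3′ on the plus strand, at the starts the deposited table gives for the RefSeq transcripts. Capitals mark TGACG, the core of the cAMP response element (CRE) that CREB binds, and AGGTCA, the core of nuclear receptor motifs, each searched on both strands. On the other strand they read CGTCA and TGACCT.

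Ucp1, the 250 bases before the start, chr8:85813997-85814246: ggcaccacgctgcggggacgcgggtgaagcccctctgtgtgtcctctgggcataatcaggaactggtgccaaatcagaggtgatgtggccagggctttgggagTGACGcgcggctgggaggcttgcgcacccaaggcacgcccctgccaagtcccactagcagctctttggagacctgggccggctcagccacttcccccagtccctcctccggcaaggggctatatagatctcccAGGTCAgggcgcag

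Ucp2, the 250 bases before the start, chr7:107641617-107641866: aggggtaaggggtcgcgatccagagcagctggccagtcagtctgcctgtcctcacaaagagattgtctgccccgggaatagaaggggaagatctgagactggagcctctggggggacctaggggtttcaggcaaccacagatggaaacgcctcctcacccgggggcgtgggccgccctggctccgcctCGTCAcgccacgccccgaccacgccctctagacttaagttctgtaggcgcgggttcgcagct

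Ucp3, the 250 bases before the start, chr7:107621250-107621499: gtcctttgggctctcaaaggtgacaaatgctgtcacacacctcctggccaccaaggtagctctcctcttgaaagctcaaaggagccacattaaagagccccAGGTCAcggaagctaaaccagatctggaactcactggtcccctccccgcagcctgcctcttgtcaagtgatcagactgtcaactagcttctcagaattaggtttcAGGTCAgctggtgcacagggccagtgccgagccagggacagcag

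Within these 250 bases, Ucp1 held TGACG 147 bases before its start and AGGTCA 14 bases before it. Ucp2 held TGACG once, 62 bases before the start and on the other strand, and no AGGTCA. Ucp3 held AGGTCA 2 times, 149 and 44 bases before the start, and no TGACG. Over 20278 gene starts of the table, 21.2% had a TGACG and 12% an AGGTCA in a window of this length.

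In the 3000 bases before the start, Ucp1 had 5 matches to TGACG and 2 to AGGTCA, against 2 and 1 for Ucp2 and 1 and 4 for Ucp3. Windows of 3000 bases held TGACG before 64.8% of starts and AGGTCA before 84.1%, so such a match is common. The full CRE (TGACGTCA), the NBRE bound by NR4A receptors (AAAGGTCA) and the PPAR response element (AGGTCA repeated with 1 base between), each of which contains a core, had no match before any of the 3 genes. Such matches were present before 3.88%, 14.4% and 0.552% of starts, respectively. A match is a description of letters, and its absence from these windows shows nothing about the binding of a factor.

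Before Ucp1, 3 of the 7 cores lay within 240 bases, from 2631 to 2392 bases before the start, and this stretch is shown because it was the densest. A distal enhancer of Ucp1 is known from work on brown fat, and whether it coincides with this stretch was not examined.

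Ucp1, the upstream stretch with most cores, chr8:85811616-85811855: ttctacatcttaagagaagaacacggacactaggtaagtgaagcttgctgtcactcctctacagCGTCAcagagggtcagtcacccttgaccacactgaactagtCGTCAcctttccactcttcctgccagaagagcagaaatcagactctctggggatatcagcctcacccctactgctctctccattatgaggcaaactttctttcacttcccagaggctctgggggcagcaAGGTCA

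The libraries held between 10310447 and 21205032 counts in 17 cases and 4263755 in the last, Lipase Inh. + SR-3420 replicate 2. There Lars2, which encodes the mitochondrial leucyl-tRNA synthetase, took 18.3% of the counts, against at most 0.121% elsewhere. Levels are given as CPM, counts relative to the library total, after TMM scaling, and a gene was called changed at a Benjamini-Hochberg adjusted p of at most 0.05 in edgeR's quasi-likelihood test over the 12156 genes. Adipocyte markers were abundant, with Adipoq between 2415 and 4026 CPM in every library. Of 10 brown adipocyte markers, Ppara (165 to 814 CPM), Ebf2 (80.7 to 196 CPM) and Cidea (38.6 to 77.1 CPM) were present in every library. So were Prdm16 (19.0 to 65.1 CPM), Cox8b (20.1 to 52.7 CPM) and Elovl3 (3.13 to 66.1 CPM). Dio2, Zic1 and Lhx8, however, had at most 6, 2 and 1 counts in any library, and Cox7a1 at most 2.47 CPM. The leukocyte genes Ptprc and Tyrobp and the muscle genes Myf5 and Tnnt3 were at 0 in all 18 libraries. Other genes of those lists were present in every library, namely Cd14 (9 to 124 counts), Cd68 (10 to 70 counts), Mb (168 to 2811 counts) and Acta1 (7 to 23 counts). Myod1 had 0 to 22 counts and Csf1r 0 to 14. With ISO, Cd68 was higher (0.74 ± 0.27, adjusted p = 0.0283), as was Myod1 (1.55 ± 0.58, adjusted p = 0.0304).

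Vehicle-treated cells expressed mostly Ucp2. Its level was 216, 236 and 244 CPM in replicates 1, 2 and 3, whereas Ucp3 stood at 8.34, 12.4 and 7.15 CPM. Ucp1 had only 37, 41 and 29 reads, or 2.34, 3.17 and 2.56 CPM. Expressed per kilobase of counted length, which permits comparison between genes, Ucp2 was at 147 ± 9.06, Ucp3 at 3.79 ± 1.12 and Ucp1 at 1.64 ± 0.262 CPM per kilobase (SD, n = 3). Ucp2 thus held between 95.5% and 97.2% of the summed level of the 3 genes and exceeded Ucp1 by 77.6 to 99.5 times. The brown fat uncoupling protein was the least abundant transcript of the 3 in each Vehicle sample.

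**Figure D1:**
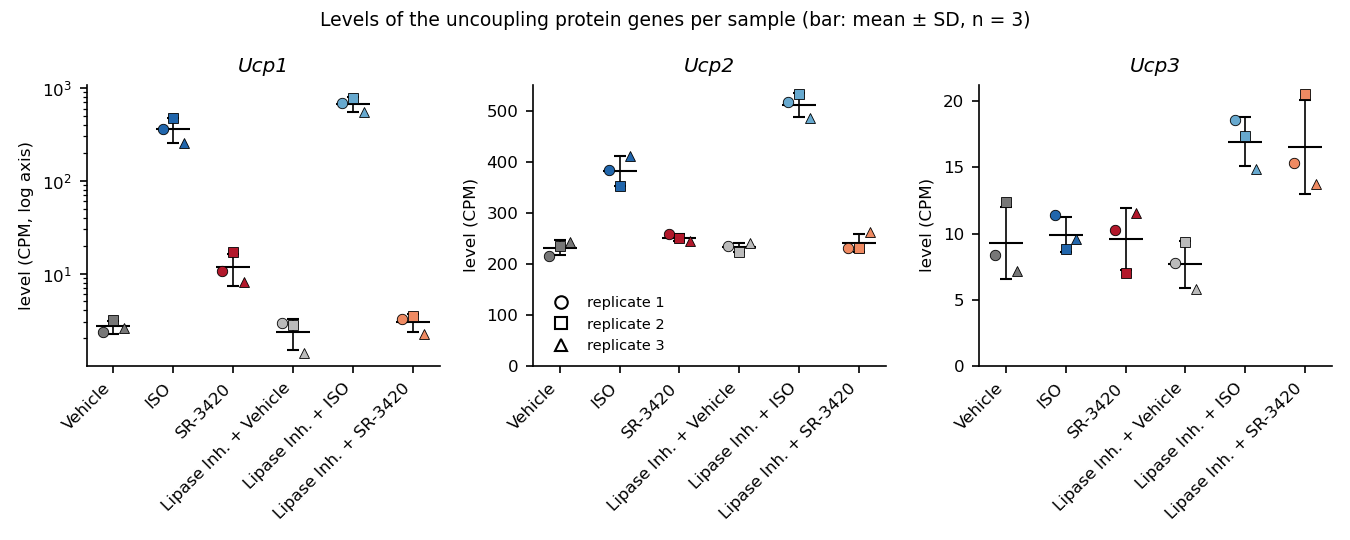
Level of each uncoupling protein gene in CPM of TMM-scaled libraries (vertical axis, logarithmic for Ucp1 and starting at 0 for Ucp2 and Ucp3) in the 6 groups, with 1 symbol per sample (circle, square and triangle for replicates 1, 2 and 3) and bars for mean ± SD (n = 3). Ucp1 stands between 257 and 789 CPM in the 6 samples given ISO, Ucp2 is above all other samples there, and Ucp3 is above 13 CPM only in the samples given a stimulus together with inhibitors.

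ISO was compared with Vehicle to read the response to β-adrenergic stimulation. ISO raised Ucp1 136-fold and Ucp2 1.65-fold, and Ucp3 did not pass the test. With ISO, Ucp1 reached 359, 474 and 257 CPM, so the lowest ISO sample was far above the highest Vehicle sample. The log2 fold change was 7.08 ± 0.28 (SE; adjusted p = 9.56e-15), the third highest among the genes tested. Ucp2 reached 384, 352 and 412 CPM, also without overlap, for a log2 fold change of 0.72 ± 0.07 (adjusted p = 1.94e-08). Ucp3 stood at 11.4, 8.82 and 9.56 CPM, within the range of Vehicle (log2 fold change 0.10 ± 0.21, 95% interval from -0.35 to 0.55, adjusted p = 0.718). Thus 2 of the 3 genes passed in the upward direction, where 26.8% of all genes tested did so. Scaling by total counts without TMM moved the median gene by -0.31 in this comparison, and changes with ISO are to be read relative to that shift. Markers of mature adipocytes, 10 of 10 tested, were also higher in sum with ISO, from 30899 to 32560 CPM against 23845 to 26118 CPM with Vehicle. The largest member of the sum was Lpl, with 7679 to 24868 CPM over the 18 libraries. Of the 10, 5 were called higher and 0 lower (median log2 fold change 0.34), where 26.8% and 25% of all genes were. The sum of the brown adipocyte markers was between 425 and 600 CPM with Vehicle and between 894 and 1025 CPM with ISO. Of the 7 brown markers tested, 3 were called higher and 1 lower (median log2 fold change 0.21). The part of either marker list in the changes was not tested. In bulk RNA, fewer or more cells of a type cannot be told apart from less or more RNA per cell.

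SR-3420 was compared with Vehicle to read what activated lipolysis does without receptor stimulation. SR-3420 raised Ucp1 4.33-fold, and neither Ucp2 nor Ucp3 passed the test. Ucp1 stood at 10.65, 16.9 and 8.13 CPM, each above all Vehicle samples, with a log2 fold change of 2.11 ± 0.34 (adjusted p = 2.17e-05). Even so, the highest SR-3420 sample was well below the lowest ISO sample. Ucp2 stood at 259, 251 and 245 CPM (log2 fold change 0.12 ± 0.07, 95% interval from -0.03 to 0.26, adjusted p = 0.173). Ucp3 stood at 10.3, 7.01 and 11.5 CPM, overlapping Vehicle (0.06 ± 0.21, interval from -0.37 to 0.50, adjusted p = 0.823). Thus 1 of 3 genes was called higher, against 26% of all genes tested. This comparison and that of ISO share the Vehicle samples. Total counts alone shifted the median gene by -0.16. The sum of the brown adipocyte markers was between 944 and 1165 CPM with SR-3420, against 425 to 600 CPM with Vehicle. Of the 7 tested, 3 were called higher and 1 lower, where 26% and 25.4% of all genes were. The part of these brown markers in the changes was not tested.

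A direct comparison of the stimuli, which share no samples, put Ucp1 31.4-fold higher with ISO than with SR-3420 (log2 difference 4.97 ± 0.23, adjusted p = 6.60e-13). Ucp2 was 1.52-fold higher with ISO (0.61 ± 0.07, adjusted p = 1.33e-06), and the samples of the groups did not overlap for either gene. For Ucp3 the difference of 0.04 ± 0.21 did not pass (95% interval from -0.40 to 0.48, adjusted p = 0.916). In this direction 15.8% of all genes were called.

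Inhibitors alone left the 3 genes near their Vehicle levels, with 0 of 3 called by edgeR's quasi-likelihood test in a comparison that called 0.913% of all genes. In Lipase Inh. + Vehicle, Ucp1 stood at 2.92, 2.80 and 1.39 CPM (log2 fold change -0.22 ± 0.45, 95% interval from -1.16 to 0.72, adjusted p = 0.894). Ucp2 stood at 235, 223 and 241 CPM (0.01 ± 0.07, interval from -0.14 to 0.15, adjusted p = 0.986). Ucp3 stood at 7.80, 9.39 and 5.84 CPM (-0.29 ± 0.22, interval from -0.75 to 0.16, adjusted p = 0.651). The groups overlapped for each gene. The interval of Ucp1, which had between 24 and 41 reads per library in these groups, was wide, and smaller changes were not detectable at this depth, whereas that of Ucp2 was narrow. All 3 intervals held 0, so that 0 of 3 genes had an unadjusted p under 0.05, and DESeq2 called 0 of the 2 to which it gave an adjusted p.

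With lipases inhibited, ISO raised all 3 uncoupling protein genes relative to Lipase Inh. + Vehicle. Ucp1 reached 683, 789 and 553 CPM, a 294-fold rise (log2 fold change 8.20 ± 0.29, adjusted p = 8.66e-16) and the second highest of the genes tested. Ucp2 reached 517, 534 and 487 CPM, a 2.20-fold rise (1.14 ± 0.07, adjusted p = 1.02e-11). Ucp3 reached 18.5, 17.4 and 14.9 CPM, a 2.22-fold rise (1.15 ± 0.21, adjusted p = 6.08e-05). The lowest sample with ISO was above the highest without it for every gene, and 3 of 3 genes were called higher where 29.4% of all genes were. Total counts alone shifted the median gene by -0.23 here. The sum of the mature adipocyte markers was higher as well, going from between 23200 and 23549 to between 36218 and 39551 CPM. Its largest member was Lpl, with 7679 to 24868 CPM over the 18 libraries. Of the 10 mature markers, 6 were called higher and 0 lower (median log2 fold change 0.20), where 29.4% and 28.3% of all genes were. The sum of the brown adipocyte markers was between 439 and 645 CPM without ISO and between 395 and 446 CPM with it. The part of either marker list in the changes was not tested.

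Against ISO without inhibitors, the levels in Lipase Inh. + ISO were higher for all 3 genes, and the samples did not overlap. The log2 differences were 0.89 ± 0.18 for Ucp1 (adjusted p = 0.000379), 0.42 ± 0.07 for Ucp2 (adjusted p = 4.14e-05) and 0.76 ± 0.20 for Ucp3 (adjusted p = 0.00478), or 1.85-fold, 1.34-fold and 1.69-fold. In that direction 21% of all genes tested were called. Blocking the lipases thus went with more, not less, mRNA of each uncoupling protein in ISO-treated cells.

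Whether the inhibitors altered the response to ISO was tested by the interaction, the effect with inhibitors minus that without. It was 0.41 ± 0.10 for Ucp2 (adjusted p = 0.00269) and 1.05 ± 0.30 for Ucp3 (adjusted p = 0.00978), which means that both responded more strongly to ISO when lipases were inhibited. For Ucp1 it was 1.11 ± 0.49 (95% interval from 0.10 to 2.13), with an adjusted p of 0.0885. Thus 2 of 3 genes passed upward, where 14.9% of all genes did. The value for Ucp1 passed on total counts alone (1.20, adjusted p = 0.0402), without the filter on low counts (1.12, adjusted p = 0.0114) and without ISO replicate 2 (1.36, adjusted p = 0.0237), and its call therefore depended on such choices while its direction did not.

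**Figure D2:**
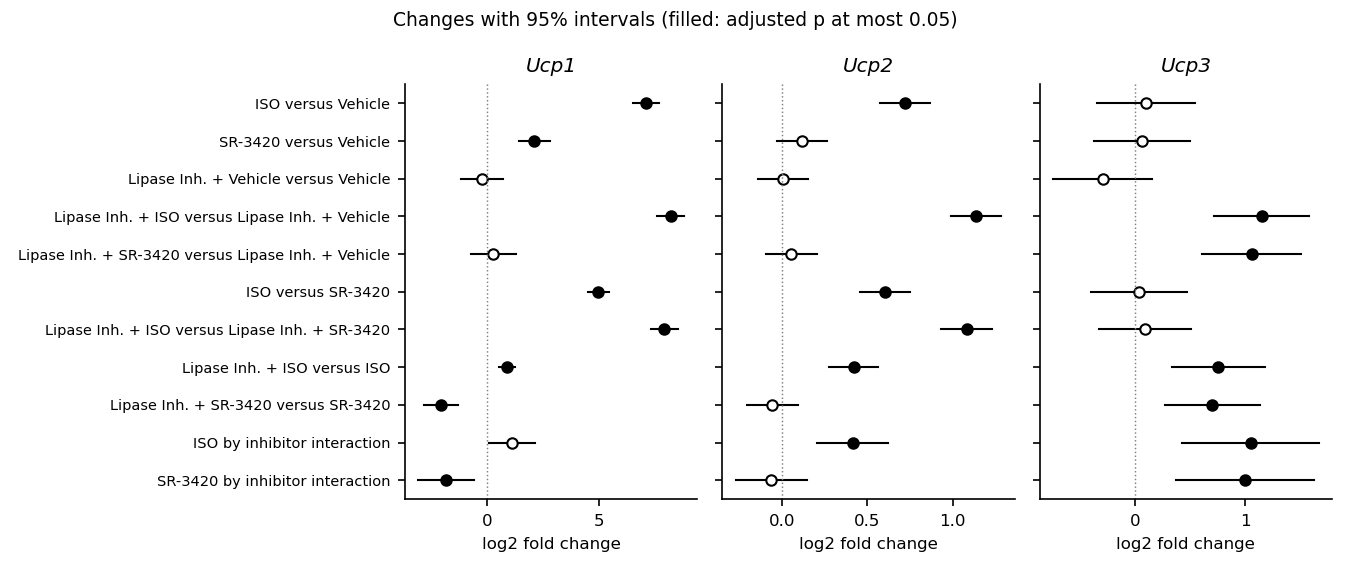
Log2 fold changes of Ucp1, Ucp2 and Ucp3 (horizontal axis, on a scale of its own for each gene) for each comparison, with bars for 95% intervals and filled symbols where the adjusted p was at most 0.05. In response to ISO, Ucp1 changes by 7.08 alone and 8.20 with inhibitors, Ucp2 by 0.72 and 1.14, and Ucp3 by 0.10 and 1.15.

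With lipases inhibited, SR-3420 no longer raised Ucp1 past the threshold but raised Ucp3. Ucp1 stood at 3.24, 3.46 and 2.23 CPM, overlapping Lipase Inh. + Vehicle (log2 fold change 0.28 ± 0.48, 95% interval from -0.72 to 1.28, adjusted p = 0.838). Ucp2 stood at 231, 231 and 262 CPM and also overlapped it (0.06 ± 0.07, interval from -0.09 to 0.20, adjusted p = 0.760). Ucp3 stood at 15.3, 20.5 and 13.7 CPM, each sample above every Lipase Inh. + Vehicle sample, a 2.09-fold rise (1.06 ± 0.22, adjusted p = 0.00468). Thus 1 of the 3 genes was called higher, against 2.99% of all genes tested.

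The highest of these Ucp3 values came from the shallow library in which Lars2 took a large share. Without that library the rise of Ucp3 was 0.93 ± 0.22 (adjusted p = 0.0214), and leaving out any other single library kept it between 0.88 and 1.23. Of 10 skeletal muscle markers, which bear on Ucp3 because muscle expresses it, 3 were tested. Their list summed to between 47.2 and 52.2 CPM in Lipase Inh. + SR-3420 and between 50.3 and 70.1 CPM in Lipase Inh. + Vehicle. In Lipase Inh. + ISO it summed to between 95.3 and 144 CPM. In every group the sum came nearly all from Mb, which encodes myoglobin (44.8 to 142 CPM over the 18 libraries), so it describes mainly that gene. The part of this list in the rise of Ucp3 with either stimulus was not tested. Myog, Ckm, Myh1 and Myh4 had at most 2 counts in any library, whereas Acta1 had 7 to 23 and Myod1 0 to 22.

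Compared with SR-3420 alone, Ucp1 in Lipase Inh. + SR-3420 was lower by -2.06 ± 0.36 on the log2 scale (adjusted p = 0.000111), or 0.240 times its level, where 20.9% of all genes were called lower. Ucp3 was higher by 0.70 ± 0.21 (adjusted p = 0.0104), where 18.9% were called higher. Ucp2 did not pass (-0.05 ± 0.07, 95% interval from -0.20 to 0.09, adjusted p = 0.573). The inhibitors therefore went with opposite changes of Ucp1 and Ucp3 in cells given SR-3420. Without SR-3420 replicate 2, in which Ucp3 was lowest, the difference for Ucp3 was 0.53 (adjusted p = 0.0604).

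The interaction for SR-3420 was -1.84 ± 0.60 for Ucp1 (adjusted p = 0.0261), -0.06 ± 0.10 for Ucp2 (95% interval from -0.27 to 0.15, adjusted p = 0.697) and 1.00 ± 0.30 for Ucp3 (adjusted p = 0.0172). Of all genes, 14.8% were called negative and 12.5% positive. Both calls depended on single libraries. That of Ucp1 was lost without Vehicle replicate 1 (-1.73, adjusted p = 0.0670), Lipase Inh. + Vehicle replicate 1 (-1.63, adjusted p = 0.0846) or 2 (-1.70, adjusted p = 0.0672), or Lipase Inh. + SR-3420 replicate 3 (-1.58, adjusted p = 0.0890). That of Ucp3 was lost without Vehicle replicate 2 (0.74, adjusted p = 0.0723) or Lipase Inh. + Vehicle replicate 3 (0.82, adjusted p = 0.0575).

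Between the stimuli under inhibition, Ucp1 was 243-fold and Ucp2 2.12-fold higher in Lipase Inh. + ISO than in Lipase Inh. + SR-3420 (log2 differences 7.92 ± 0.30 and 1.08 ± 0.07, adjusted p = 2.53e-15 and 2.99e-11), in a direction that held 28.6% of all genes. Ucp3, in contrast, overlapped between these groups (0.09 ± 0.20, 95% interval from -0.33 to 0.51, adjusted p = 0.728).

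The order of levels therefore differed by gene. For Ucp1, Lipase Inh. + ISO was highest, followed by ISO and SR-3420, each apart from the next. Lipase Inh. + SR-3420, Vehicle and Lipase Inh. + Vehicle then overlapped, at means of 2.98 ± 0.660, 2.69 ± 0.430 and 2.37 ± 0.852 CPM (SD, n = 3). For Ucp2, Lipase Inh. + ISO (513 ± 23.7 CPM) and ISO (383 ± 29.98 CPM) stood apart from the remaining 4 groups, whose means ran from 232 to 252 CPM and whose neighbours overlapped. For Ucp3, Lipase Inh. + ISO (16.9 ± 1.86 CPM) and Lipase Inh. + SR-3420 (16.5 ± 3.55 CPM) overlapped with each other and lay above the other 4 groups, which ran from 7.68 to 9.92 CPM.

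Because Ucp1 started so low, its induction changed the make-up of the family. With ISO, Ucp1 held 46.8%, 55.9% and 37.1% of the summed level per kilobase in replicates 1, 2 and 3, and with Lipase Inh. + ISO 55.3%, 58.1% and 51.6%. The ratio of Ucp1 to Ucp2 rose from 0.0111 ± 0.00155 with Vehicle to 0.929 ± 0.347 with ISO and 1.26 ± 0.164 with Lipase Inh. + ISO (SD, n = 3). Per length, Ucp1 therefore drew level with Ucp2 under ISO, in 1 sample above it, and was above it in each of the 3 Lipase Inh. + ISO samples. The summed level of the family went from between 142 and 159 CPM per kilobase with Vehicle to between 422 and 516 with ISO and between 652 and 825 with Lipase Inh. + ISO. With SR-3420, Ucp1 held only 3.71%, 5.96% and 2.99%. The sum, 171 ± 5.10 (from 165 to 175), was a little above that of Vehicle, 153 ± 9.29, without overlap of samples. Ucp3 held at most 5.34% in any sample, in Lipase Inh. + SR-3420.

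**Figure D3:**
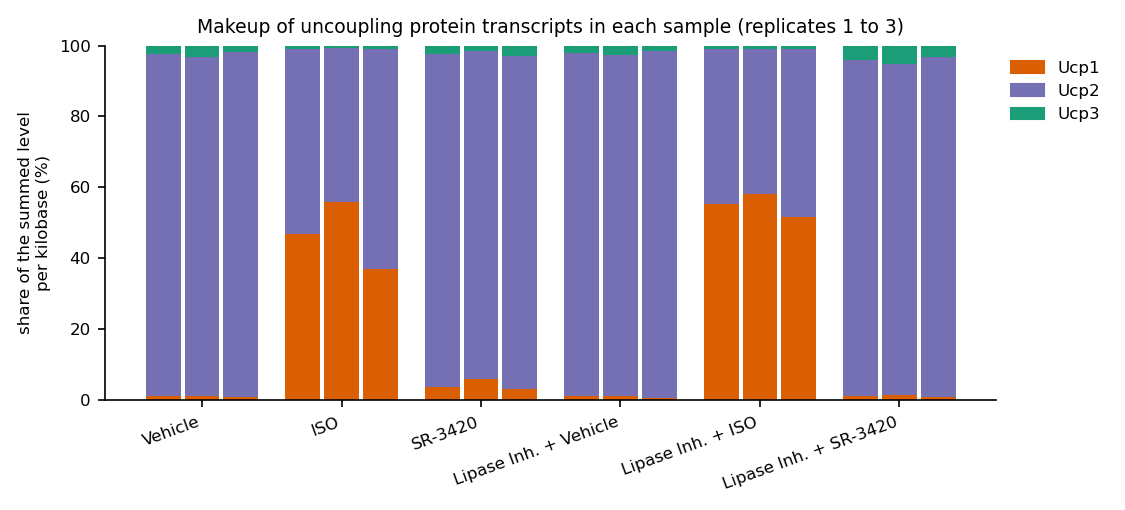
Share (percent, vertical axis) of Ucp1, Ucp2 and Ucp3 in their summed level per kilobase of counted length, as 1 stacked bar for each of the 18 samples by group, replicates 1 to 3 from left to right. Ucp2 makes up between 95.5% and 97.2% with Vehicle, and Ucp1 between 51.6% and 58.1% with Lipase Inh. + ISO.

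Replicates varied unequally. The biological coefficient of variation estimated over the 18 samples was 0.189 for Ucp1, 0.159 for Ucp3 and 0.0630 for Ucp2, against a median of 0.0834 over the genes tested. In each of the 4 groups given ISO or SR-3420, Ucp1 was highest in replicate 2 and lowest in replicate 3. In Vehicle it was also highest in replicate 2 but lowest in replicate 1, and in Lipase Inh. + Vehicle highest in replicate 1.

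Genes placed beside the family members on the chromosome were examined next, since neighbours within 50 kilobases can share regulatory DNA. Elmod2, on the opposite strand 14175 bases beyond Ucp1, rose from 174 ± 10.6 CPM with Vehicle to 700 ± 36.3 CPM with ISO (SD, n = 3; log2 fold change 2.00 ± 0.06, adjusted p = 1.25e-16). With Lipase Inh. + ISO it stood at 322 ± 10.3 CPM, and its interaction for ISO was negative (-1.07 ± 0.08, adjusted p = 2.47e-09). Ucp1 and Elmod2 thus both rose with ISO, while inhibitors went with a higher level of Ucp1 and a lower level of Elmod2. Tbc1d9, 17407 bases before Ucp1, had at most 23 counts and rose with ISO by 1.59 ± 0.34 (adjusted p = 0.000523).

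Around Ucp3 and Ucp2, C2cd3 and Mrpl48 were not called higher in any of the 4 comparisons of a stimulus with its own control. Mrpl48 was lower with SR-3420 (-0.54 ± 0.13, adjusted p = 0.00115), as was Coa4 (-0.57 ± 0.16, adjusted p = 0.00431), and C2cd3 with ISO under inhibitors (-0.34 ± 0.11, adjusted p = 0.0145). Dnajb13, which begins beyond the end of Ucp2 with 3390 bases between them and lies on the opposite strand, rose with ISO under inhibitors by 1.51 ± 0.27 (adjusted p = 6.02e-05) and changed by 0.03 ± 0.29 without them. Its interaction was 1.48 ± 0.40 (adjusted p = 0.0069). Coa4, an assembly factor of cytochrome c oxidase, had the values 1.02 ± 0.15 and -0.03 ± 0.15 (interaction 1.05 ± 0.22, adjusted p = 0.000721). It stood at 8.53, 6.96 and 8.56 CPM with Vehicle and at 5.40, 5.36 and 6.01 CPM with Lipase Inh. + Vehicle. Its interaction therefore also holds this lower level without a stimulus. As for Ucp3, ISO passed the test for Dnajb13 and Coa4 only with inhibitors, and the interaction for ISO was positive. With SR-3420 under inhibitors neither passed (0.74 ± 0.31 and 0.38 ± 0.17, adjusted p = 0.220 and 0.252), whereas Ucp3 did. Dnajb13 had at most 83 counts and Coa4 at most 223 in any library.

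**Figure D4:**
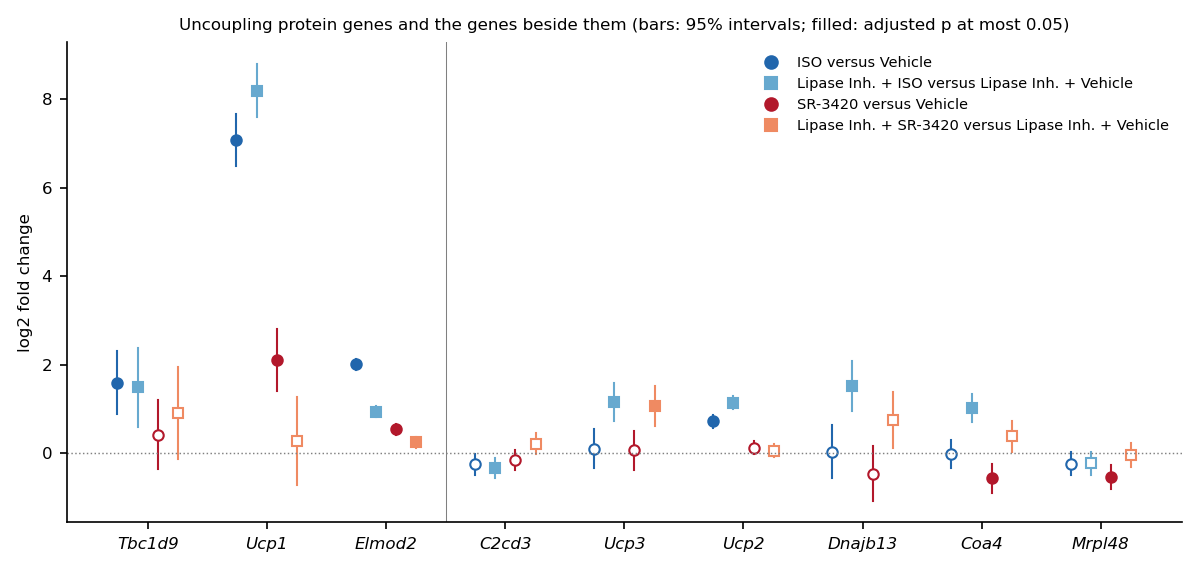
Log2 fold changes (vertical axis) of the uncoupling protein genes and the genes within 50 kilobases, in chromosomal order, for ISO and SR-3420 without and with inhibitors, with bars for 95% intervals and filled symbols where the adjusted p was at most 0.05. Elmod2 has its higher value with ISO without inhibitors (2.00), whereas Dnajb13 and Coa4 pass for ISO only with them (1.51 and 1.02).

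The genes most like each member were read from Pearson's correlation of log2 CPM over the 6 group means, among genes whose average log2 CPM was 3 or more and whose SD over groups was 0.5 or more. These are descriptions over 6 points that share samples and scaling. For Ucp1, out of 1064 candidates, Mapkapk2 (0.999), Thbd, Far1, Slc25a51 and Tgm2 were nearest, all at 0.998 or more. Slc25a51 encodes the mitochondrial carrier of NAD and rose by 2.51 ± 0.06 with ISO under inhibitors. For Ucp2 the nearest of 1065 were Arl5a (0.999), Cldn1, Csrp2, Ptplb and Alpl (0.995). For Ucp3 the nearest was Aatk at 0.799, followed by Lars2 at 0.720, whose group mean rests on the single library named above. Among these candidates, the highest correlation for Ucp3 was thus lower than those for Ucp1 and Ucp2. Ucp3 had only 77 to 294 reads per library, and genes that varied less between groups were not candidates. The lower value therefore cannot show that its pattern was less shared. On total counts alone, 3, 2 and 4 of the 5 nearest genes of Ucp1, Ucp2 and Ucp3 stayed among the 5.

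Of 6 other related inner membrane carriers tested, 1 was higher, 2 were lower and 3 did not pass with ISO against Vehicle, with a median log2 fold change of -0.29 where that of all genes was -0.02, with 26.8% of them called higher and 25% lower. Slc25a20, the carnitine-acylcarnitine carrier that imports fatty acids for oxidation, rose by 1.06 ± 0.08. Slc25a27, also called Ucp4, changed by -1.35 ± 0.23 and Slc25a30 by -0.35 ± 0.15. With Lipase Inh. + ISO, Slc25a4 (0.47 ± 0.10) and Slc25a5 (0.69 ± 0.10), the adenine nucleotide translocases that can also leak protons, rose with Slc25a20 (0.31 ± 0.08), so that 3 were higher, 1 lower and 2 not past the test, though on total counts alone 1 was higher. Among all genes, 29.4% were higher and 28.3% lower there. Slc25a4 and Slc25a5 had not passed with ISO alone (adjusted p = 0.0628 and 0.177), and their interactions for ISO were positive (0.69 ± 0.13 and 0.52 ± 0.14, adjusted p = 0.000447 and 0.00842), as those of Ucp2 and Ucp3 were. That of Slc25a20 was negative (-0.75 ± 0.11, adjusted p = 2.39e-05), so its rise was smaller with inhibitors. Of the 6 carriers, 2 thus had a positive and 1 a negative interaction, against 14.9% and 16.6% of all genes. With Lipase Inh. + SR-3420, 0 of 6 passed by edgeR's test, 0 had an unadjusted p under 0.05 and 0 were called by DESeq2.

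Among 24 tested factors known to act on Ucp1 transcription, 15 were higher, 3 lower and 6 not past the test with ISO against Vehicle (median 0.71), where 26.8% of all genes were higher and 25% lower. Nr4a3 (9.34 ± 0.26) and Nr4a1 (4.89 ± 0.11), orphan receptors induced by cAMP, rose most, along with Ppargc1a (3.83 ± 0.09), the PGC-1α co-activator, and Zfp516 (2.08 ± 0.07), a zinc finger activator of Ucp1. With SR-3420, 15 were higher and 4 lower (median 0.49), where 26% of all genes were higher and 25.4% lower, and with Lipase Inh. + ISO 11 were higher and 9 lower (median 0.08), where the shares were 29.4% and 28.3%. The interaction for ISO was negative in 12 of the 24 and positive in 3, against 16.6% and 14.9% of all genes. Ppargc1a (-1.99 ± 0.12) and Nr4a1 (-2.56 ± 0.15) were among the negative ones, whereas that of Zfp516 was -0.18 ± 0.10 (adjusted p = 0.202) and that of Nr4a3 -0.56 ± 0.81 (adjusted p = 0.646). The ISO-induced rise of Ppargc1a and Nr4a1 was thus smaller with inhibitors, while the mRNA of Ucp1 was higher. These 4 factors were picked for the largest changes with ISO without inhibitors, a choice that favours a negative interaction. The 3 positive ones were Esrra (1.35 ± 0.28), Crem (0.88 ± 0.15) and Ppard (0.44 ± 0.09). A negative interaction is not always a smaller rise, since the list also holds factors that ISO did not raise. On total counts alone 7 rather than 3 factors were lower with ISO.

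Of 13 tested brown fat thermogenic genes, 6 were higher and 2 lower with ISO (median 0.21), where 26.8% and 25% of all genes were. Gpr3, a receptor active without ligand (5.83 ± 0.51), Elovl3, a fatty acid elongase (3.66 ± 0.14), Gyk, glycerol kinase (3.08 ± 0.10), and Acsl1, which activates fatty acids (2.00 ± 0.07), rose. Gpr3 had few reads, with an average log2 CPM of 0.29 over the samples. With Lipase Inh. + ISO, 7 of the 13 were higher and 1 lower (median 0.93), where 29.4% and 28.3% of all genes were. The 4 named genes were picked for the largest changes with ISO without inhibitors. Their interaction was negative in each case, from -4.90 ± 0.99 for Gpr3 to -0.39 ± 0.10 for Acsl1. Of the 13 genes, 5 had a negative and 4 a positive one, against 16.6% and 14.9% of all genes. The thyroid hormone-activating deiodinase gene Dio2 and Lhx8, Eva1a, Bmp8b and Slc27a2 had too few reads to be tested.

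Heat production without UCP1, by creatine or calcium cycling, involves other genes, of which 7 were tested. With ISO 2 were higher, 2 lower and 3 not past the test (median -0.0019), which is near the shares of all genes (26.8% and 25%), and with Lipase Inh. + ISO 4 were higher and 2 lower (median 0.40), where 29.4% and 28.3% of all genes were. Alpl, the phosphatase placed in the creatine cycle, rose by 1.96 ± 0.09 with ISO and 2.79 ± 0.09 with Lipase Inh. + ISO, and its interaction of 0.83 ± 0.12 (adjusted p = 2.11e-05) had the sign of those of Ucp2 and Ucp3. Gamt, which makes creatine, changed by -0.81 and -1.08. Of the SERCA pumps, Atp2a1 had an interaction of 1.56 ± 0.34 (adjusted p = 0.00133). Atp2a2 rose by 0.49 and 0.55 without and with inhibitors. Ckmt1, Ckmt2, Gatm, Ryr2 and Pm20d1 had at most 3 counts in any library and were not tested.

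Of 21 tested genes of fatty acid oxidation that respond to PPARs, 13 were higher and 1 lower with ISO (median 0.45), and 12 were higher and 3 lower with SR-3420 (median 0.60). Among all genes, 26.8% were higher and 25% lower with ISO, and 26% and 25.4% with SR-3420. Fgf21 (6.72 and 6.77), a secreted factor, Plin2 (2.49 and 2.61), a lipid droplet coat protein, and Pdk4 (2.39 and 3.08), which restrains glucose oxidation, rose with both stimuli. Ucp3 is itself a known PPAR target, yet it passed with neither stimulus and only when lipases were inhibited. The interaction for ISO was negative in 9 of the 21 and positive in 2, and that for SR-3420 negative in 10 and positive in 2, where all genes had 16.6% and 14.9% for ISO and 14.8% and 12.5% for SR-3420. Ucp3, with positive interactions in both, therefore differed in sign from Plin2 (-3.13 ± 0.16) and Pdk4 (-2.72 ± 0.13), the values given being those for ISO. On total counts alone 8 rather than 13 of these genes were higher with ISO.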

How the data were processed

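The authors prepared TruSeq libraries, aligned reads to mm9 with STAR 2.4.2a, kept 1 read per position and length with HOMER and used iRNA-seq to count them over RefSeq genes. Their deposited table holds raw counts of 20295 genes for 18 samples. Strand use is not stated, and its starts, counted from 0, are printed counting from 1. No molecular identifiers are described. Keeping 1 read per position and length can limit the counts of short, abundant genes. The highest count per counted base was 6.64 for Ucp1, 6.10 for Ucp2 and 0.120 for Ucp3, against 320 for any gene. Whether the deposited counts carry such a limit was not tested.

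Groups and replicate numbers came from the sample titles. The study speaks of independent experiments, and p-values measure the spread between these samples of 1 line. The members and lists were chosen with earlier results of these data known. Named genes were the members, genes within 50 kilobases, the 5 most alike per member and up to 4 genes per list, of which 1 is not reported here. Slc25a4, Slc25a5, Atp2a1, Esrra, Crem, Ppard and the marker genes were named after their values were seen.

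The tests were run with edgeR 4.0.16 under R 4.3.3 (filterByExpr with minimum count 10 and total count 15, TMM, 1 quasi-likelihood fit over 18 samples with a mean per group, Benjamini-Hochberg adjustment over 12156 genes). SEs came from the fold change and its F statistic, and 95% intervals from the t distribution. In simulated counts of ISO against Vehicle, 196 of 200 genes changed 3-fold (98%) were recovered among 12014 tested, with 1 other call. There a call also had to reach 2-fold, a stricter rule than the adjusted p alone used above. The simulation gave every gene the same dispersion, unlike these data. Alternatives were DESeq2 1.42.0, RLE factors, total counts alone, other filters, a replicate block, only the groups compared and each library left out. Leaving Lars2 out was added after seeing the data.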

Additional observations from a re-analysis of the deposited data

Results flagged for a closer look

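In 4 cases the effect of a stimulus on an uncoupling protein gene differed between cells with and without lipase inhibitors, by edgeR's test of the difference itself (18 samples in the fit, 3 per group). The effect of ISO was larger with inhibitors for Ucp2 (interaction 0.41 ± 0.10, SE, adjusted p = 0.00269) and for Ucp3 (1.05 ± 0.30, adjusted p = 0.00978). The effect of SR-3420 was smaller with inhibitors for Ucp1 (-1.84 ± 0.60, adjusted p = 0.0261) and larger for Ucp3 (1.00 ± 0.30, adjusted p = 0.0172). Both SR-3420 cases lost their call in some fits that left out a single library, whereas both ISO cases kept it in all 18 such fits.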

How the results depend on the processing

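Of 263 values recomputed under alternatives other than leaving out a library, 253 kept direction and call. Ucp1's interaction for ISO gained its call on total counts alone (1.20), without the filter on low counts (1.12) and with the replicate block (1.10, adjusted p = 0.000456). Total counts alone turned the sign of uncalled values to -0.042, -0.014 and -0.052 for Ucp2 (SR-3420 and Lipase Inh. + Vehicle, each against Vehicle, and Lipase Inh. + SR-3420 against its control) and to -0.21, -0.10, -0.11 and -0.037 for Ucp3 (ISO and SR-3420 against Vehicle, and ISO against SR-3420 without and with inhibitors).

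Of 594 values with a library left out, 572 kept direction and call. The ranges where a call or sign changed were, for Ucp1, 0.79 to 1.36 (ISO interaction), -2.16 to -1.51 (SR-3420 interaction), -0.43 to 0.10 (inhibitors alone) and -0.046 to 0.53 (SR-3420 with inhibitors). For Ucp2 they were -0.044 to 0.037 (inhibitors alone) and -0.011 to 0.091 (SR-3420 with inhibitors). For Ucp3 they were 0.53 to 0.86 (Lipase Inh. + SR-3420 against SR-3420), 0.74 to 1.16 (SR-3420 interaction), -0.047 to 0.36 (ISO), -0.10 to 0.32 (SR-3420), and -0.14 to 0.20 and -0.035 to 0.22 (ISO against SR-3420 without and with inhibitors). The cause was not tested.

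Same-numbered samples deviated from their group means with a mean correlation of 0.110 across genes, over 0.1 in 1 of 15 pairs for number 1, 12 of 15 for number 2 and 15 of 15 for number 3, and 12 of 18 samples correlated best with their own number. The numbers were not taken as a pairing because not every pair was over 0.1, although numbers 2 and 3 share a component. The replicate block changed no other call of the 3 genes. Calls over all genes moved by over 1.5 times for inhibitors alone, from 111 to 221 (DESeq2), 69 (total counts), 269 (replicate block) and 47 (only the groups compared), and for SR-3420 with inhibitors from 528 to 344 (total counts), 852 (replicate block) and 345 (only the groups compared). The share of calls that were higher went on total counts alone from 51.7% to 19.9% (ISO), 50.6% to 30.8% (SR-3420), 53.2% to 42.0% (inhibitors alone), 51.0% to 27.8% (ISO with inhibitors), 68.8% to 33.1% (SR-3420 with inhibitors), 53.1% to 20.3% (ISO against SR-3420) and 50.3% to 37.0% (the same with inhibitors), and from 47.3% to 58.6% for the ISO interaction.

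Depth limits Ucp1 most, with 13 counts in Lipase Inh. + SR-3420 replicate 2 and 24 to 41 in the groups given no stimulus.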
